A study of Rattus norvegicus with 2 samples.

Results

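Syndecans and glypicans are the cell-surface families of heparan sulfate proteoglycans, and 6 of their genes were followed here: the syndecans Sdc1, Sdc2, Sdc3 and Sdc4 and the glypicans Gpc1 and Gpc3. They were chosen by name, with earlier results of these arrays known, and every probe set that the platform annotation assigns to exactly 1 of these symbols was taken. This gave 10 of the 15866 probe sets that are not controls, and 6 of 10411 genes. RNA came from rat sympathetic neurons, which use noradrenaline as transmitter and reach organs such as the heart, on 1 oligonucleotide array for neurons cultured with myocyte targets and 1 for neurons cultured without them. Per the labels' protocols, neurons were loosened from dishes that held myocytes or other flat cells with an EDTA wash before total RNA was extracted, so that cells carried over from the dish could be part of either RNA. The description field of the co-culture sample names neurons grown alone, against its title and source name, which were followed here. No genotype, strain, age or culture time is given in the labels. The series' design text asks which genes accompany the growth inhibition that neurons show on contact with their targets.

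A syndecan is a core protein with 1 membrane-spanning stretch and a short cytoplasmic tail, and its outer part carries heparan sulfate chains. A glypican carries such chains close to the membrane, to which it is held by a lipid anchor. The sulfated chains bind growth factors, guidance cues and matrix proteins and present them to signalling receptors. Sdc3, also called N-syndecan, is the syndecan best known from axons and binds pleiotrophin, and Gpc1 is the glypican best known from neurons.

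With 1 array per condition, no difference has a replicate check and none was tested, and every comparison below is between these 2 arrays. Values are the deposited signals, which are linear intensities, and log2 ratios are co-culture over alone, after signals below 39.6 were raised to that value. A probe set was above the signal filter if it reached its array's median in at least 1 array (175.0 in neurons from co-culture and 185.7 in neurons alone). As a yardstick, probe sets of the same gene above the filter differed in log2 ratio with an SD of 0.28 for 1 probe set (749 genes). The SD was 0.34 in the dimmest and 0.25 in the brightest of 4 groups of these genes. This is a spread between probe sets, not between cultures. Each probe set has its own response, so levels of different probe sets were set against each other only for the filter, brightness groups and a gene's brightest probe set. Signals summed over a list weigh its brightest probe sets most.

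Sdc3 was lower in neurons from co-culture on all 3 of its probe sets, but by very different amounts. Of the 10 member probe sets, 2 of its 3 had the largest differences, while its brightest had one of the smaller ones. Probe set 1368580_at had a signal of 183.9 in neurons from co-culture, against 635.8 in neurons alone, which is 3.46-fold lower (log2 ratio -1.79). Probe set 1368581_at had 218.6 in neurons from co-culture, against 435.4 in neurons alone, which is 1.99-fold lower (log2 ratio -0.99). The annotation lists the same sequence accession for both. The third, 1372180_at, is listed under another accession and had 621.3 in neurons from co-culture, against 679.5 in neurons alone, only 1.09-fold lower (log2 ratio -0.13). In bulk RNA of this kind, fewer cells of a type and less RNA per cell cannot be told apart.

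Among the 8308 probe sets above the filter, 1368580_at had the 6th lowest log2 ratio and 1368581_at the 69th lowest. Of the 9 syndecan and glypican probe sets above the filter, 1368580_at was the only one at least 2-fold apart, and 1368581_at lay just short of it. Over all probe sets above the filter, 1.16% were at least 2-fold apart, with 68 lower (0.818%) and 28 higher (0.337%) in neurons from co-culture. After quantile normalization these were 53 lower and 36 higher. The 2 larger differences of Sdc3 were 5.34 and 2.97 times the spread of 1 probe set at their brightness, and that of 1372180_at was 0.45 times the spread.

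The probe sets of Sdc3 spanned 1.66 in log2 ratio. Of 749 genes with more than 1 probe set above the filter, only 3, Sdc3 included, spanned as much, against a median span of 0.23. Among the 86 genes with at least 3 such probe sets, no other gene spanned as much, and the median span there was 0.39. The probe set that carried the highest mean signal, 1372180_at, is the one that gave the smallest difference. The 2 facts are linked, since its lead over 1368580_at was small in neurons alone (679.5 against 635.8) and large in neurons from co-culture (621.3 against 183.9). A gene value taken from the brightest probe set was therefore -0.13 for Sdc3, whereas the mean over its 3 probe sets was -0.97. Which transcripts each probe set detects was not tested.

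**Figure D1:**
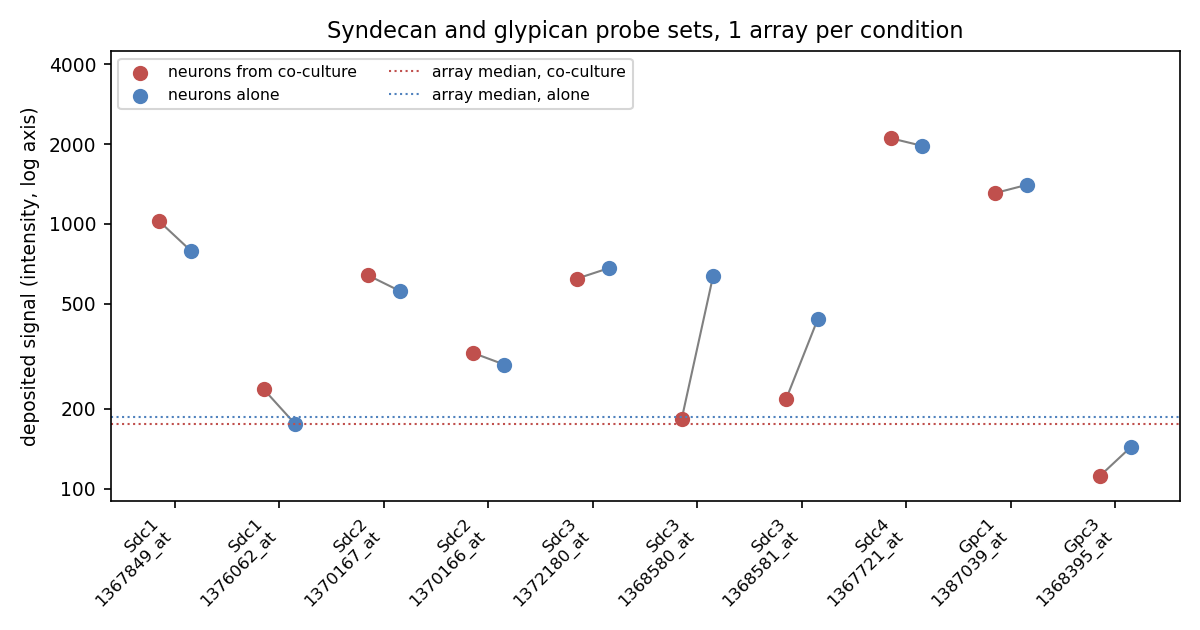
Deposited signal (intensity, log axis) of each of the 10 probe sets, with neurons from co-culture on the left (red) and neurons alone on the right (blue) of each pair, and the array medians as dotted lines. Sdc3 probe sets 1368580_at and 1368581_at drop steeply to 183.9 and 218.6 in neurons from co-culture, both Sdc1 probe sets are somewhat higher there, and Gpc3 lies below both medians.

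Sdc1, the syndecan best known from epithelia and plasma cells, went the other way and was higher in neurons from co-culture on both of its probe sets. Probe set 1367849_at had 1022 in neurons from co-culture, against 792.1 in neurons alone, 1.29-fold higher (log2 ratio 0.37). The dimmer 1376062_at had 237.1 in neurons from co-culture, against 175.4 in neurons alone, 1.35-fold higher (log2 ratio 0.43). They are listed under different accessions, and their log2 ratios lay 0.07 apart. Each difference was larger than the spread of 1 probe set at its brightness, by 1.47 and 1.30 times. Of the probe sets above the filter, 93.7% had a log2 ratio at or below that of 1367849_at, and 95.6% at or below that of 1376062_at. Probe set 1376062_at passed the filter only through its signal in neurons from co-culture.

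Sequence before the annotated start was compared for Sdc1, Sdc3, Sdc4 and Gpc3, which the RefSeq promoter table (GRCr8) holds, out of the 6 genes. The stretches of Sdc3 and Sdc1, whose values stand above, are printed because these genes differed in opposite directions. Each is the 250 bases before the start, and capitals mark the GC box GGGCGG on either strand, the element that Sp1-family factors bind.
Sdc3, chr5:148249542-148249791, plus strand: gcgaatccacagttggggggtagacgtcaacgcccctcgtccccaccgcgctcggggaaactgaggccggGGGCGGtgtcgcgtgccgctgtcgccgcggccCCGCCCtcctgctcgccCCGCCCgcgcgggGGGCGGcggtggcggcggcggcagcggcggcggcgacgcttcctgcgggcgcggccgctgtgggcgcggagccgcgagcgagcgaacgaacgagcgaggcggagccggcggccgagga
Sdc1, chr6:37281791-37282040, plus strand: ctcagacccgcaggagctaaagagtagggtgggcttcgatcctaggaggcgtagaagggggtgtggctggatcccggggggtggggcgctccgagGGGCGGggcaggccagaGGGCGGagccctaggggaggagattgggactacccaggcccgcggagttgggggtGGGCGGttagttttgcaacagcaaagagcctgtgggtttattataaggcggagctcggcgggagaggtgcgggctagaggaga
The GC box occurred 4 times in Sdc3, 3 times in Sdc1, 5 times in Sdc4 (with an overlapping pair) and 4 times in Gpc3, whereas 30.5% of 33469 rat promoters held at least 1. At least 3 were held by 7.41% of all promoters, at least 4 by 3.67% and at least 5 by 1.72%. None of the 4 held TATAAA on either strand, which 12.9% of all promoters held, or TGANTCA, which 6.34% held. An E-box (CANNTG) was found in Sdc3 alone of the 4, once, and 65.5% of all promoters held it. The Sdc3 stretch was 80.0% G and C with 48 CpG dinucleotides, and that of Sdc1 65.2% with 15, beside medians of 51.2% and 5 over all promoters. These matches describe letters, and the arrays do not measure binding or start site use.

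Sdc2, a syndecan of mesenchymal cells that is also found at dendritic spines, was slightly higher in neurons from co-culture on both probe sets. Probe set 1370167_at had 638.3 in neurons from co-culture, against 558.0 in neurons alone, 1.14-fold higher (log2 ratio 0.19). Probe set 1370166_at had 325.6 in neurons from co-culture, against 294.2 in neurons alone, 1.11-fold higher (log2 ratio 0.15). They are listed under the same accession and differed by 0.05 in log2 ratio. Both differences were smaller than the spread of 1 probe set (0.67 and 0.44 times).

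Sdc4, the syndecan of focal adhesions, which binds protein kinase C alpha through its tail, was nearly level. Its single probe set 1367721_at had 2104 in neurons from co-culture, against 1969 in neurons alone, 1.07-fold higher (log2 ratio 0.10). The difference was 0.38 times the spread of 1 probe set, and under scaling to the spiked controls the log2 ratio turned to -0.01.

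The glypicans were both lower in neurons from co-culture, by small amounts. Gpc1, which binds fibroblast growth factors and Slit proteins, had 1306 in neurons from co-culture, against 1402 in neurons alone, 1.07-fold lower (log2 ratio -0.10) on probe set 1387039_at. This was 0.41 times the spread of 1 probe set. Gpc3, which holds back hedgehog signalling and whose loss in humans causes an overgrowth syndrome, had 111.6 in neurons from co-culture, against 143.9 in neurons alone, 1.29-fold lower (log2 ratio -0.37) on probe set 1368395_at. It was below the median on both arrays, so it did not pass the filter. Its difference was 1.10 times the spread of 1 probe set among the dimmest genes above the filter. The spread at its own, lower level was not measured. Each of these genes, like Sdc4, rests on a single probe set, and no other reading of it on these arrays was used.

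Over all 10 probe sets, 5 were higher and 5 lower in neurons from co-culture. Of the 9 above the filter, 5 were higher and 4 lower, while over all probe sets above the filter 46.0% were higher and 54.0% lower. By brightest probe set, 3 of the 6 genes were higher and 3 lower, with a median log2 ratio of -0.00, beside a median of -0.01 over the 6368 genes above the filter. The 4 syndecans had a median of 0.14 and the 2 glypicans of -0.23. Members thus lay on both sides of 0, and 8 of the 10 probe sets lay within 1.5-fold, as did 93.8% of all probe sets above the filter.

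Differences between members do not depend on a constant factor between the arrays, which cancels. Scalings that vary with signal can still change them. After quantile normalization Sdc1 (1367849_at) was at 0.38 and Gpc3 at -0.25, against 0.37 and -0.37 as reported. The gaps that follow are as reported. The log2 ratio of Sdc1 (1367849_at) exceeded that of Sdc3 by 2.16 on 1368580_at, by 1.36 on 1368581_at and by 0.50 on 1372180_at. It exceeded that of Sdc2 by 0.17 on 1370167_at, that of Sdc4 by 0.27, that of Gpc1 by 0.47 and that of Gpc3 by 0.73. The gap between Sdc1 and Sdc3 was thus the widest on 2 of the 3 Sdc3 probe sets, whereas on 1372180_at it was narrower than the gap to Gpc3 and close to that to Gpc1.

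**Figure D2:**
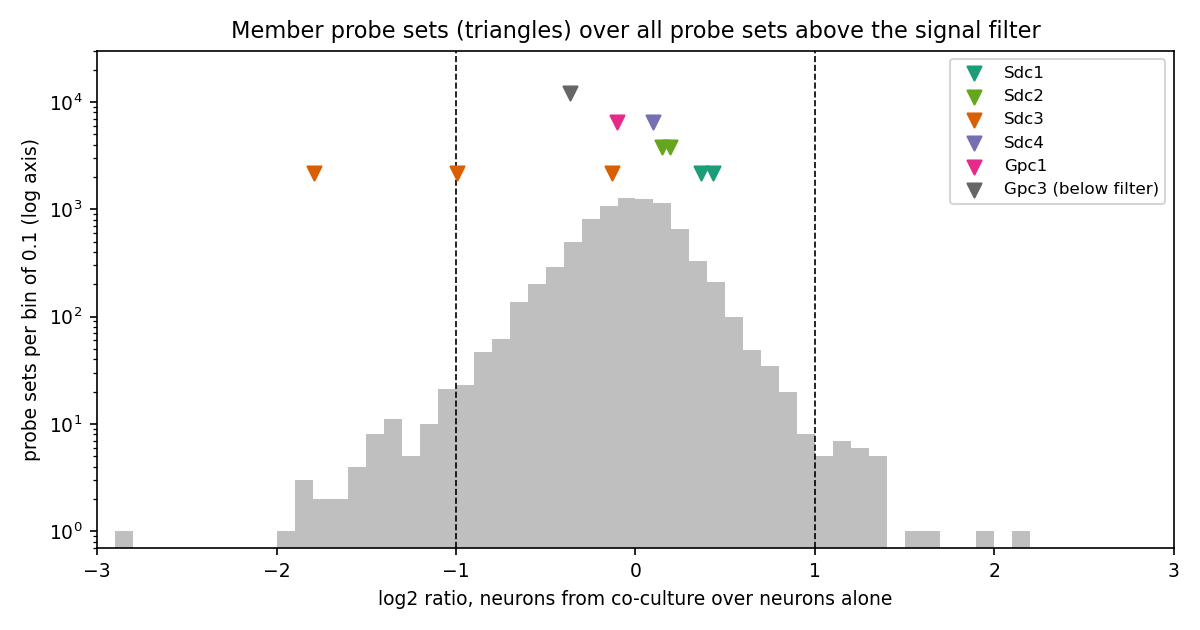
Number of probe sets above the signal filter (log axis) in bins of log2 ratio, neurons from co-culture over neurons alone, with the 10 syndecan and glypican probe sets as triangles whose height has no meaning and 2-fold as dashed lines. Sdc3 spreads from -1.79 to -0.13, whereas both Sdc1 triangles lie near 0.4 and the other genes within the bulk of the distribution.

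The directions held under nearly all ways of scaling the arrays. Over 8 alternatives of scaling, floor and pseudocount, Sdc3 ranged from -1.90 to -1.60 on 1368580_at, from -1.10 to -0.88 on 1368581_at and from -0.23 to -0.04 on 1372180_at. Sdc1 ranged from 0.26 to 0.45 on 1367849_at and from 0.33 to 0.53 on 1376062_at. Sdc2 stayed between 0.04 and 0.28 on its probe sets, and Gpc1 between -0.21 and -0.02. Gpc3 stayed between -0.47 and -0.24. Sdc4 alone changed sign, between -0.01 and 0.18.

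**Figure D3:**
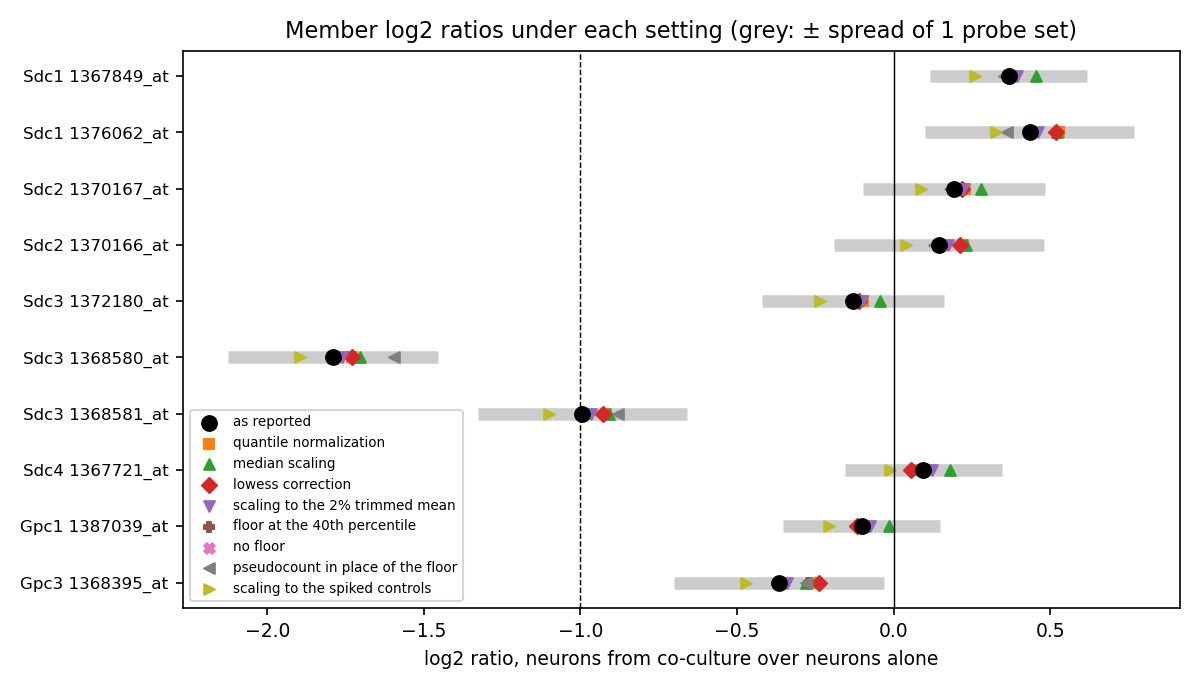
Log2 ratio of each probe set, neurons from co-culture over neurons alone, as reported (black circle) and under 8 alternatives (coloured symbols), with a grey bar of the reported value plus and minus the spread of 1 probe set and a dashed line at 2-fold lower. The grey bars of Sdc3 probe sets 1368580_at and 1368581_at lie far below 0, those of both Sdc1 probe sets lie above it, that of Gpc3 ends just below it, and those of Sdc2, Sdc4, Gpc1 and the third Sdc3 probe set cross it. The bar of Gpc3, which is below the signal filter, uses the spread of the dimmest genes above the filter.

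With 2 arrays, the pattern of a gene is a single log2 ratio, and many genes share any given value. Nearest to Sdc1 among 3400 bright genes (at or above the 75th percentile of an array) were Dhrs4, Prkaa1 and Pdcd5, each at 0.37, and 116 of them lay within 0.05 of it. Nearest to Gpc3, the lowest gene by brightest probe set, were Trim35, Creb3l1 and Psmg2, each at -0.37, with 134 within 0.05.

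Markers of the cells that the RNA could hold differed between the arrays as well, and their part in the syndecan differences was not tested. Beside the counts of markers that follow, 47.3% of all genes above the filter were higher in neurons from co-culture and 52.7% lower. All 11 sympathetic neuron markers on the array were lower in neurons from co-culture (median log2 ratio -0.31, summed signal 31542 against 38690 in neurons alone), among them Th, tyrosine hydroxylase, which starts noradrenaline synthesis, at -0.43. Of 12 fibroblast and smooth muscle markers, 9 were higher in neurons from co-culture, or 6 after quantile normalization (median 0.18, summed signal 51633 against 47548 in neurons alone), with Col1a1 at 0.11, or -0.03 after quantile normalization. The members named next were picked with their values in view. The matrix genes Mgp (1.96), Dcn (1.09) and Lum (0.80) were higher, and the 3 lower markers were the contractile genes Acta2 (-0.47), Myl9 (-0.24) and Tagln (-0.23). The 9 cardiac myocyte markers on the array summed to 1570 in neurons from co-culture, against 1114 in neurons alone, and of the 4 above the filter 3 were higher (median 0.33). These were Nppb (0.78), Tnnt2 (0.48) and Nppa, the atrial natriuretic peptide gene (0.18, 201.1 in neurons from co-culture and 177.6 in neurons alone), while Pln was at -0.02. Nppb and Nppa passed the filter only through neurons from co-culture, where they were higher, so this count is partly set by the filter. Of the 5 below the filter, Myl2 had 134.0 in neurons from co-culture, against 44.8 in neurons alone, and Myh6 (0.85) and Myh7 (0.82) were higher too, whereas Tnni3 and Ryr2 were under the floor on both arrays. In neurons from co-culture the summed signal was 4855 for 7 Schwann and satellite glia markers, 1535 for 9 macrophage markers and 153.8 for 4 endothelial markers, against 4776, 1709 and 172.8 for the same lists in neurons alone. The glial sum, over brightest probe sets, is mostly Pmp22 (-0.11, and -0.50 on its other probe set, which is not in the sum). Of the 5 glial markers above the filter 3 were higher (median 0.09). These were S100b (0.99), Sox10 (0.09) and Erbb3 (0.52, chosen after seeing its value). Erbb3 passed the filter only through neurons from co-culture. Without probe sets that may match several transcripts the median was 0.52, the value of Erbb3. That setting left out Pmp22 and Mbp (-0.28, also chosen after seeing its value), the 2 lower markers. By brightest probe set, 9 of the 11 neuron markers differed by more than Sdc3 (-0.13). The other Sdc3 probe sets, at -1.79 and -0.99, differed by more than any of the 11 markers by brightest probe set. The marker that differed most was Snap25 (-0.62, chosen after seeing its value). Hand2, a transcription factor of the sympathetic lineage picked with its values in view, was split like Sdc3, at -0.18 on its brightest probe set and -1.39 on its other. That other probe set passed the filter only through neurons alone, whereas all 3 Sdc3 probe sets were above the median on both arrays.

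The enzymes that build the heparan sulfate chain were mostly slightly higher in neurons from co-culture. Of 7 genes above the filter, 6 were higher, with a median log2 ratio of 0.25, beside 47.3% higher and 52.7% lower over all genes above the filter, and none was 2-fold apart (0.942% of all genes). The copolymerase genes had 558.2 (Ext1) and 610.1 (Ext2) in neurons from co-culture, against 464.2 and 487.2 in neurons alone. Extl3, which starts the chain, was at 0.31, and Ugdh, which makes the glucuronic acid donor, and Fam20b, a kinase of the linker, were each at 0.15. Of the genes named, Extl3 and Ext2 differed by more than the spread of 1 probe set.

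The genes that sulfate and trim the chain went in both directions. Of 7 above the filter, 3 were higher and 4 lower in neurons from co-culture (median -0.00, or 0.08 with 5 higher under median scaling). Hs6st1, a 6-O-sulfotransferase, had 333.0 in neurons from co-culture, against 194.2 in neurons alone (log2 ratio 0.78). Ndst1, the sulfotransferase that begins the modification, had 148.8 in neurons from co-culture, against 264.0 in neurons alone (-0.83, named after its value was seen), and passed the filter only through neurons alone. The sulfatase gene Sulf2 was at -0.04, the epimerase gene Glce at -0.00, and the sulfate donor genes Papss1 and Slc35b2 at 0.13 and 0.12.

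Partners, ligands and proteases of these proteoglycans had small differences for the most part, and none above the filter was 2-fold apart. Beside the counts of these lists, 47.3% of all genes above the filter were higher in neurons from co-culture and 52.7% lower. Of 9 cytoplasmic partners above the filter, 2 were higher and 7 lower in neurons from co-culture (median -0.06, or 0.03 with 5 higher under median scaling). Among them were Sdcbp (syntenin), which binds the syndecan tail, at -0.05, Pdcd6ip at -0.28, Src at -0.39 on its brightest probe set and 0.21 on its other, Ezr at -0.12 and Cttn at -0.01. Cask (0.27) passed the filter only through neurons from co-culture and Prkca (-0.47) only through neurons alone, both named after their values were seen. The counts of partners are thus partly set by the filter. Of 7 genes of shedding and release, a list that also holds metalloproteinase inhibitors, 6 were higher (median 0.17). They included the metalloproteinases Mmp14 (0.29) and Mmp2 (0.11), and Furin (0.00, or -0.10 under scaling to the spiked controls). The inhibitor genes Timp1 (0.35) and Timp3 (0.22, and 0.30, 0.55 and -0.23 on its other probe sets) were among the 6 as well. Adam10 (-0.29, named after its value was seen), the 1 lower gene, passed the filter only through neurons alone. Of 10 heparin-binding ligands, 7 were higher (median 0.23), including Fn1 (0.32), Tnc (0.26), Pdgfa (0.20) and Mdk (0.12), while Vegfa was at -0.17. Ptn, the pleiotrophin gene, whose product binds Sdc3, had 551.0 in neurons from co-culture, against 330.9 in neurons alone (0.74, named after its value was seen).

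Of 8 receptors that work with heparan sulfate, 3 were higher and 5 lower (median -0.14), including Itgb1 (-0.08), Ptprf (-0.21), Itgb5 (-0.50) and Fgfr1 (0.21, and -0.11 on its other probe set). Fgfr2 (-0.94, named after its value was seen), among the 5 lower, passed the filter only through neurons alone, so this count is partly set by the filter. Ptprs, a receptor phosphatase that binds heparan sulfate on axons, disagreed among its probe sets like Sdc3, at 0.76, -0.07 and -0.71. The probe set at -0.71 passed the filter only through neurons alone. Of 7 other heparan sulfate proteoglycans above the filter, 3 were higher and 4 lower (median -0.01), with Col18a1 at 0.23, Cd44 at 0.14, Agrn at -0.01, Nrp1 at -0.15 and Hspg2 (perlecan) at -0.37. Tgfbr3 (-0.44, named after its value was seen), among the 4 lower, passed the filter only through neurons alone. Of the 4 chondroitin sulfate proteoglycans above the filter, 3 were higher (median 0.02), or none under scaling to the spiked controls, with Vcan at 0.02 (0.39 and -0.15 on its other probe sets), Acan at 0.02, Ptprz1 at 0.08 and Cspg4 at -0.25. Acan passed the filter only through neurons from co-culture, where it is counted as higher, so this count is partly set by the filter.

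**Figure D4:**
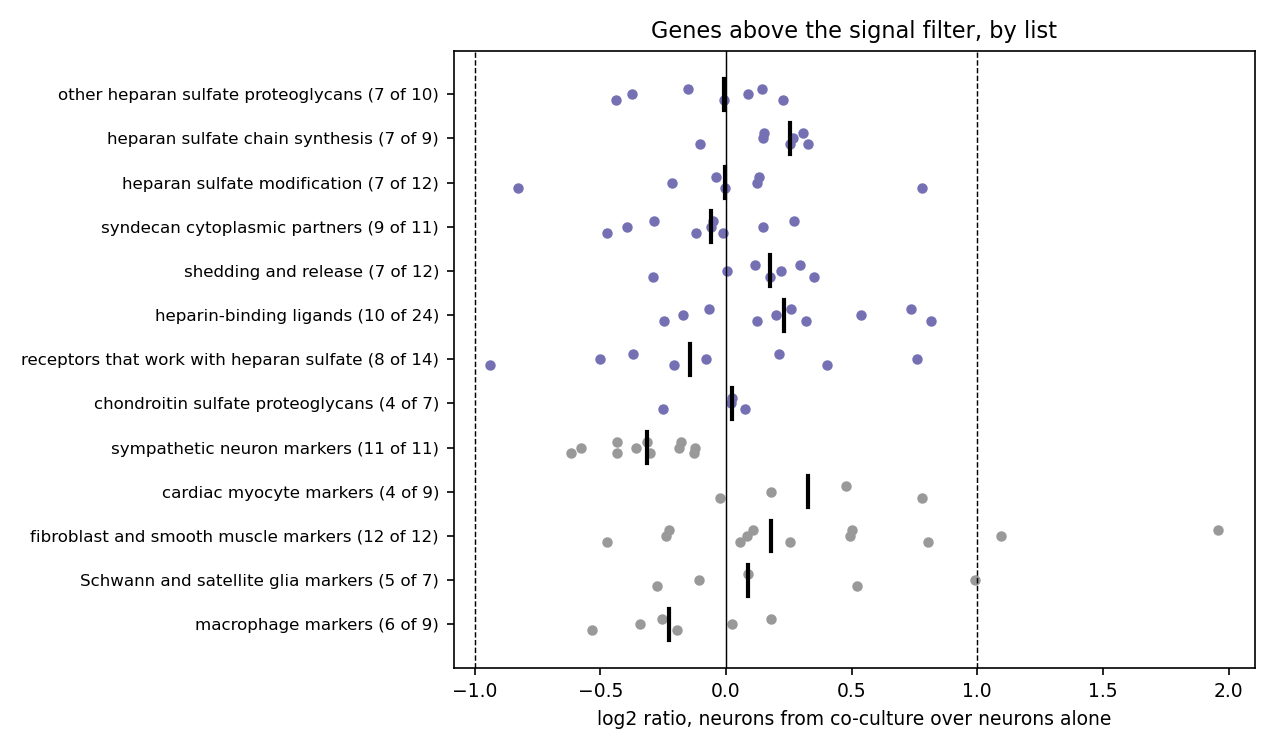
Log2 ratio, neurons from co-culture over neurons alone, of each gene above the signal filter on its brightest probe set, by list (purple for heparan sulfate and proteoglycan lists, grey for cell type markers), with black bars at list medians, dashed lines at 2-fold and, in brackets, how many of the genes on the array passed the filter. Points of chain synthesis lie mostly right of 0 and all 11 sympathetic neuron markers left of it, and no gene of the heparan sulfate and proteoglycan lists passes a dashed line.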

How the data were processed

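The authors' deposited values are linear intensities, 1 per probe set and array. The design text names dChip 1.3 for quantification, while the submitters' processing notes name MAS5. The sources used here do not say which produced the deposited values, nor how they were scaled or background-corrected. The signal over background and the number of arrays limit the precision.

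Control probe sets (57 of 15923) were left out. Signals below the pooled 20th percentile were set to it before log2 was taken. Of 15866 probe sets, 12783 had 1 symbol, 312 several and 2771 none, and 12748 of the first were matched by gene identifier to GRCr8 RefSeq symbols. Each gene was represented by its brightest probe set. The probe set spread is the SD, over genes, of the brightest minus the next probe set's log2 ratio, divided by the square root of 2. Only probe sets above the filter entered it.

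The members and gene lists were chosen with earlier results of these data known. Named genes were the members, the 5 brightest genes above the filter of each proteoglycan list, markers among the 3 brightest of their list with Th, Nppa and Col1a1, and genes nearest in log2 ratio. Any other gene is marked as chosen after seeing its values. The calculations (Python 3.11.15, pandas 2.3.3, statsmodels 0.14.6) were tested on simulated data. Alternatives were other scalings, floors, a pseudocount, gene summaries and filters, with scaling to 18 spiked control probe sets added after seeing the data.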

Additional observations from a re-analysis of the deposited data

How the results depend on the processing

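The mean over probe sets put Sdc3 at -0.97, against -0.13 on its brightest probe set. Scaling to the spiked controls, which lowered the median of all genes above the filter to -0.12, brought 1368581_at past 2-fold, for 2 member probe sets in all. The median of the 6 genes ranged from -0.11 to 0.08. The whole-array number of probe sets at least 2-fold apart was 96, and became 60 with a pseudocount in place of the floor and 295 when no filter was used or the filter was lowered to the 25th percentile. Its split was 52 lower and 34 higher under median scaling and 53 lower and 35 higher after lowess correction. Medians near 0 changed sign for the lists of other heparan sulfate proteoglycans (0.08 under median scaling) and chondroitin sulfate proteoglycans (-0.25 with no filter), and that of heparin-binding ligands was 0.00 with no filter. The median of chain synthesis stayed between 0.15 and 0.34. No replicate could be left out, and no paired analysis was possible because there was 1 array per condition.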

Other observations

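The genes that follow were picked with their values in view, and those up to Fgfr3 were below the signal filter on both arrays. With no filter, 213 probe sets of the whole array were at least 2-fold lower in neurons from co-culture and 82 higher. Hs3st2, a 3-O-sulfotransferase of neurons, had 66.7 in neurons from co-culture, against 134.1 in neurons alone. The brain proteoglycan genes Bcan and Ncan had 53.1 and 23.3 in neurons from co-culture, against 114.7 and 79.8 in neurons alone. The co-culture signal of Ncan was under the floor of 39.6. Fgf1 had 59.8 in neurons from co-culture, against 126.2 in neurons alone. The fibroblast growth factor receptor gene Fgfr3 had 39.8 in neurons from co-culture, next to the floor, against 82.3 in neurons alone. Fgfr2 passed the filter only through neurons alone, with 113.8 in neurons from co-culture, against 218.0 in neurons alone (log2 ratio -0.94). Of the other glypicans, Gpc6 had 381.9 in neurons from co-culture, against 359.8 in neurons alone, and Gpc2, below the filter on both arrays, had 152.1 in neurons from co-culture, against 175.2 in neurons alone. Lpl, the heparan sulfate-bound lipoprotein lipase, had 392.1 in neurons from co-culture, against 222.9 in neurons alone (0.81), and the chemokine gene Cxcl12 had 571.7 in neurons from co-culture, against 394.2 in neurons alone (0.54, and 0.52 on its other probe set).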
